A study of Homo sapiens with 8 samples.

Results

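Long intergenic noncoding RNA genes, whose symbols consist of LINC and a number, were followed in 2 ovarian cancer cell lines, OVSAHO and KURAMOCHI, cultured with simvastatin or L778123. The group held the 292 LINC genes that had a probe well above background on all 8 arrays, of 1127 LINC genes with a usable probe and of 14492 named genes measured in this way. A gene with several such probes was represented by the brightest one. The rule used the scanner's detection flags and the mean brightness, and no difference between groups, so that levels near the limit of detection are a description while the drug and cell line differences are not set by it. A LINC gene that sank into the background in any group could not enter. Of the 469 LINC genes that had a probe tested at all, only the 292 entered. Left out were, for instance, 56 LINC genes whose best probe was well above background on 4 of the 8 arrays.

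OVSAHO and KURAMOCHI are established cell lines of high-grade serous ovarian carcinoma. Simvastatin inhibits HMG-CoA reductase, the rate-limiting enzyme of the mevalonate pathway, and L778123, a compound written L-778123 in the paper, inhibits the farnesyl and geranylgeranyl transferases that attach products of that pathway to proteins. The comparison of both drugs served to search for actions of a statin beyond the loss of protein prenylation. There were 4 groups of 2 arrays, OVSAHO with simvastatin, OVSAHO with L778123, KURAMOCHI with simvastatin and KURAMOCHI with L778123. All cells carried a drug and no untreated array was analysed here, so a difference does not show which drug moved a gene. Concentrations and times for the arrays were not given in the sources used here. Each line is 1 cell line in culture, without stroma or immune cells. The labels do not say that replicates came from separate cultures, and p-values then measure the spread between arrays, which may be technical.

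Long noncoding RNAs are transcripts that are often spliced and polyadenylated like messenger RNA and are not translated into a known protein. Many are made in few tissues and at low levels, some act in the nucleus on chromatin or on the transcription of a neighbouring gene, and others bind proteins or microRNAs in the cytoplasm. The LINC symbols name those lying between protein-coding genes, and for most of them no function is known. In cancer, single members such as LINC00472, which is often low in breast cancer, and LINC00963, first described in prostate cancer, are studied as markers.

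The 75th percentile of the signal ranged from 324 to 437 over the arrays, 30122 to 33438 of 58162 probes were well above background, and replicate arrays correlated at 0.995 to 0.996 across the tested probes. The arrays lay on 1 slide, and the position of an array cannot be told apart from its group. All 10 markers set for serous carcinoma cells, among them PAX8, WT1 and SOX17, were above background on all arrays. No fibroblast marker of 6 was, with 4 of them, DCN, LUM, PDGFRA and COL1A2, on none and COL1A1 and COL3A1 on the 4 KURAMOCHI arrays. Of the leukocyte markers 3 of 4 were above background on all arrays and of the endothelial markers 2 of 3, while PECAM1 was on none and CD3E on 1 array. In RNA of whole cultures, fewer cells making a transcript and less of it in each cell cannot be told apart.

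The members were mostly dim. Each signal is given on the log2 scale with the 75th percentile of its array set to 0. The mean over the arrays ranged from -4.28 to 7.39 among the 292 genes, with a median of -1.57. Just inside the limit lay LINC00400, the dimmest member, with values of -4.50 to -4.03. The 22 LINC genes whose best probe passed on 7 of the 8 arrays had means of -4.33 to -2.01. Among those outside, LINC01711 ranged from -1.43 to -0.99 in OVSAHO and from -4.26 to -3.69 in KURAMOCHI. Another 562 LINC genes were above background on no array, and LINC00261 was one of them, while LINC00511 passed on 1. RefSeq lists 291 of the members as long noncoding RNA and 1, LINC02210-CRHR1, a readthrough into a receptor gene, as protein coding.

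For OVSAHO, 9 of the 292 genes (3.08%) had a higher signal with simvastatin than with L778123 and 19 (6.51%) a lower one, at an adjusted p under 0.05 and at least 2-fold, and genes past both thresholds are called here. Among 14200 other named genes chosen by the same rule, 4.74% were called higher and 4.87% lower, and among all 33753 probes tested 11.0% were called. For KURAMOCHI, 7 members (2.40%) were called higher and 3 (1.03%) lower, against 1.70% and 2.18% of the other named genes and 5.60% of all probes. The share of members called in either direction, 9.59% in OVSAHO and 3.42% in KURAMOCHI, lay near that of the other genes, 9.61% and 3.88%. In OVSAHO the called members were lower more often than higher, and in KURAMOCHI the reverse; neither imbalance was tested. The median difference of the members was 0.08 in OVSAHO and 0.00 in KURAMOCHI, beside 0.00 and 0.01 for the other genes. Without the fold threshold, 123 members (42.1%) passed in OVSAHO and 76 (26.0%) in KURAMOCHI, beside 57.4% and 37.5% of the other genes, whose median standard error was 0.07 against 0.11 for the members.

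Among these, 5 (1.71%) were called in the same direction in both lines and none was called in opposite directions, beside 2.14% and 0.0915% of the other named genes. Another 17 were called lower and 6 higher only in OVSAHO, 4 higher and 1 lower only in KURAMOCHI, and 259 in neither. Called in OVSAHO alone were thus 7.88% and in KURAMOCHI alone 1.71%, beside 7.37% and 1.65% of the other genes. Across the 292 genes, which are not independent replicates and share the arrays of their line, the log2 differences of the lines had a Pearson correlation of 0.49 and a Spearman correlation of 0.40, and 187 (64.0%) had the same sign, beside 0.56, 0.56 and 70.6% for the other named genes. In the plot of one contrast against the other, most genes called lower in OVSAHO alone lie to the left and nearer to the horizontal axis.

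**Figure D1:**
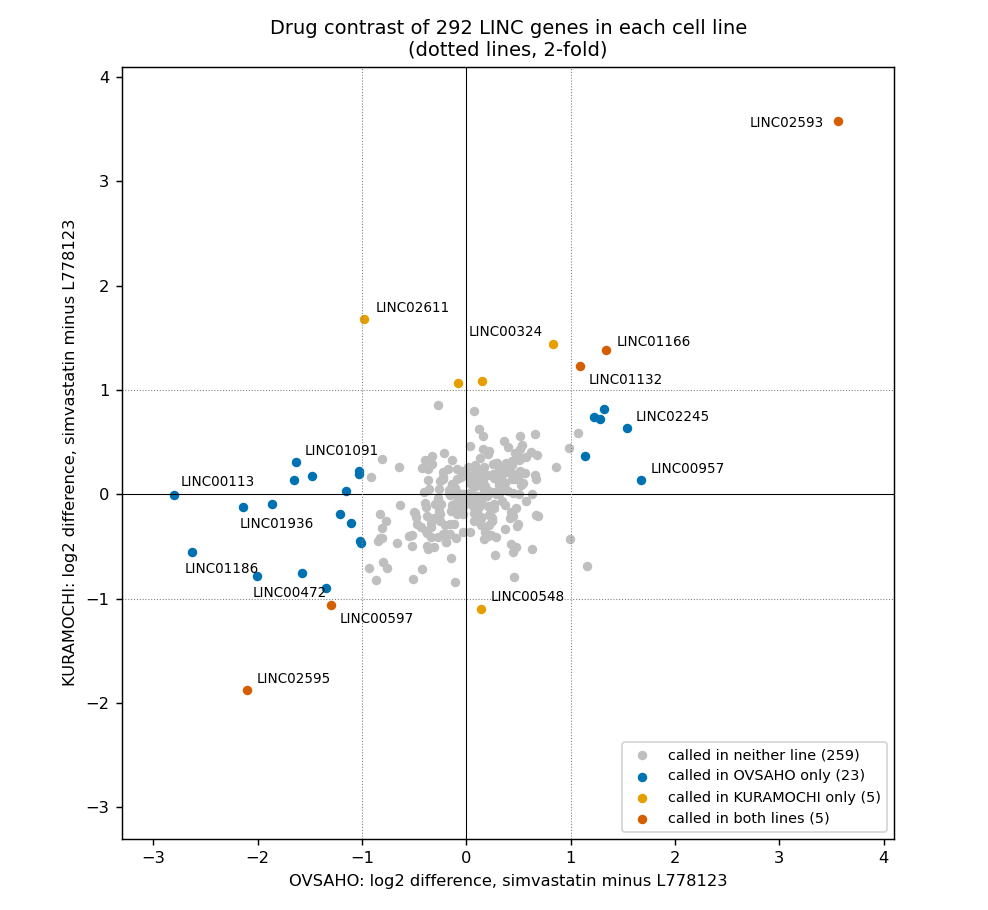
Log2 difference between simvastatin and L778123 in OVSAHO (x axis) and KURAMOCHI (y axis) for the 292 LINC genes, each point a gene and dotted lines at 2-fold. LINC02593 stands alone at 3.56 and 3.58, the 5 genes called in both lines lie near the diagonal, and several genes lower in OVSAHO, such as LINC00113 and LINC01936, lie close to 0 in KURAMOCHI.

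The promoter windows of the 5 genes called in both lines, and of SAMD11, the coding gene beside LINC02593, are shown because these are the members called in both lines. RefSeq windows of build GRCh38.p14 run from 250 bases before to 50 after the start of the gene, 5′ to 3′ on its own strand. Capitals mark matches on either strand to the motifs searched. These were TTTGGCGC and TTTCCCGC for E2F, TCACCCCAC for the sterol element and TGACGTCA for the cyclic AMP response element. The cell cycle homology region was searched as TTTGAA. Sites of ETS factors were searched for with the letters CCGGAAG. The GC box GGGCGG was chosen later. So was the TATA box with its letters TATAAA. Adjoining matches can overlap, as GGGCGG and TTTCCCGC do in the window of LINC02595.
LINC02593 (chr1:919643-919942, minus strand): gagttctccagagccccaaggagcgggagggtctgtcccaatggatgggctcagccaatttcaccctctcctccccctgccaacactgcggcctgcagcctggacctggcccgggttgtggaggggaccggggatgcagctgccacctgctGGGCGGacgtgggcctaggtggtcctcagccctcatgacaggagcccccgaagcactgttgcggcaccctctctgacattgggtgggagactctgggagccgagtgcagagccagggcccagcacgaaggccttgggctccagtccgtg
LINC01166 (chr10:132965240-132965539, minus strand): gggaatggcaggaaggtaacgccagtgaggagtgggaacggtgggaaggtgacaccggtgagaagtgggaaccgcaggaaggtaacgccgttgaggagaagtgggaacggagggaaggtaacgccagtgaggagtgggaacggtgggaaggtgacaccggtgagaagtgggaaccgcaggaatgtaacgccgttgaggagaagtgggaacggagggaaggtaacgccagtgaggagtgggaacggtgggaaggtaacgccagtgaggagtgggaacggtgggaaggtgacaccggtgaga
LINC01132 (chr1:234723792-234724091, plus strand): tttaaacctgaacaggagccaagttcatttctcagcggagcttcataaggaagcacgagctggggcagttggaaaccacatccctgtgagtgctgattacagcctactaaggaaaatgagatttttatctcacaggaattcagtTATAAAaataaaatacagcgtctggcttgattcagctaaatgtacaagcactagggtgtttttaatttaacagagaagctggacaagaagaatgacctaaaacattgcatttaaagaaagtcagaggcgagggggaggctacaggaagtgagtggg
LINC02595 (chrX:45851441-45851740, minus strand): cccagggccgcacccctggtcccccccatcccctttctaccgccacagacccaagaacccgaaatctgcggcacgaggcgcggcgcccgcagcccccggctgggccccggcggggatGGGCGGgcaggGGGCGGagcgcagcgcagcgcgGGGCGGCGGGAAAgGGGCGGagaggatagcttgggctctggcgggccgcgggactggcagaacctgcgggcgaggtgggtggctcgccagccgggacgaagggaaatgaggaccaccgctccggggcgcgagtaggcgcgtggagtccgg
LINC00597 (chr15:77225355-77225654, minus strand): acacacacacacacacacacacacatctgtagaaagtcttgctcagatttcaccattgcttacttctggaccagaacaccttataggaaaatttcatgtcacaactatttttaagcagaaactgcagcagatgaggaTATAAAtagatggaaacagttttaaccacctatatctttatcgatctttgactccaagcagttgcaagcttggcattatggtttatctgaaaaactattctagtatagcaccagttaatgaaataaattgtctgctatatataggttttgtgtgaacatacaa
SAMD11 (chr1:925481-925780, plus strand): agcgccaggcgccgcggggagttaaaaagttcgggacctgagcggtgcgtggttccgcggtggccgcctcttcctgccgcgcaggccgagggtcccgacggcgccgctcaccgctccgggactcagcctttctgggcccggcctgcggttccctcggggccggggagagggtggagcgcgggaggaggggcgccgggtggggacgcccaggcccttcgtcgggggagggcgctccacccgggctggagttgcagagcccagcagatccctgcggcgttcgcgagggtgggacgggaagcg
The window of LINC02595 held GGGCGG and TTTCCCGC in 5 matches, that of LINC02593 held GGGCGG once, those of LINC01132 and LINC00597 held TATAAA once, and those of LINC01166 and SAMD11 held no match. A window was found for 208 of the 292 members, and their median GC content was 54.5%, against 58.3% for all 27305 windows. TTTGAA was found in 18.8% of the member windows and 15.4% of all, CCGGAAG in 9.13% and 10.7%, TTTCCCGC in 1.92% and 1.66%, TGACGTCA in 0.962% and 1.98%, GGGCGG in 38.9% and 44.6%, and TATAAA in 12.0% of each. TTTGGCGC and TCACCCCAC were found in 0 member windows, and in 0.659% and 0.425% of all. These shares describe letters in a window and were not tested.

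LINC02593 changed most. The log2 signal of LINC02593 was 1.14 and 1.13 on the simvastatin arrays and -2.52 and -2.33 on the L778123 arrays of OVSAHO, and 3.84 and 3.86 against 0.25 and 0.29 in KURAMOCHI. Simvastatin arrays were thus higher than L778123 arrays in both lines without overlap, and the difference was 3.56 ± 0.07 in OVSAHO and 3.58 ± 0.07 in KURAMOCHI, an 11.8-fold and 11.9-fold higher signal, with adjusted p-values of 1.28e-05 and 4.71e-05. The difference between the lines in this contrast was -0.01 ± 0.11 (SE), adjusted p = 0.94. LINC02593 was also lower in OVSAHO than in KURAMOCHI, with a log2 difference of -2.71 ± 0.05 averaged over both drugs.

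SAMD11, which encodes a sterile alpha motif protein known from the retina, lies head to head with LINC02593. The gap was under 5 kb between the genes as listed in the RefSeq gene table, while the promoter windows printed above lie farther apart. On the OVSAHO arrays SAMD11 had a log2 signal of 3.24 and 2.95 with simvastatin and 0.71 and 0.90 with L778123, and on the KURAMOCHI arrays 4.72 and 4.74 with simvastatin and 1.62 and 1.74 with L778123. It was higher with simvastatin as well, by 2.29 ± 0.12 in OVSAHO and 3.05 ± 0.12 in KURAMOCHI. A further 2 members, LINC00115 and LINC01128, have SAMD11 as their nearest coding gene at 5 kb or more, and neither was called in a drug contrast. These were looked up after the values of SAMD11 were seen.

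LINC01166 and LINC01132 were the other members called higher in both lines. For LINC01166, the log2 signals were 0.03 and 0.14 with simvastatin and -1.19 and -1.30 with L778123 in OVSAHO, beside -0.15 and -0.36 and then -1.75 and -1.53 in KURAMOCHI. The difference was 1.34 ± 0.11 in OVSAHO and 1.39 ± 0.11 in KURAMOCHI (adjusted p = 0.0004 and 0.000815), with no overlap between the drugs. LINC01132 had log2 signals of 1.55 and 1.64 (simvastatin) and 0.46 and 0.55 (L778123) in OVSAHO and of 2.00 and 2.07 (simvastatin) and 0.82 and 0.79 (L778123) in KURAMOCHI. It differed by 1.09 ± 0.07 and 1.23 ± 0.07 (adjusted p = 0.000133 and 0.00028). IRF2BP2, a transcriptional corepressor and the coding gene nearest to LINC01132, differed by 0.47 ± 0.07 and 0.64 ± 0.07, under the 2-fold threshold. With normexp background correction the OVSAHO difference of LINC01132 was 0.99, just under 2-fold.

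LINC02595 and LINC00597 were called lower with simvastatin in both lines. The log2 signal of LINC02595 was -3.11 and -2.87 on the simvastatin arrays and -0.85 and -0.93 on the L778123 arrays of OVSAHO, and -3.33 and -3.64 against -1.65 and -1.56 in KURAMOCHI. The groups did not overlap in either line, and the difference was -2.10 ± 0.13 in OVSAHO and -1.88 ± 0.13 in KURAMOCHI (adjusted p = 0.000151 and 0.000554). On the OVSAHO arrays LINC00597 had a log2 signal of -1.70 and -1.46 with simvastatin and -0.30 and -0.26 with L778123, and on the KURAMOCHI arrays -0.31 and 0.01 with simvastatin and 0.93 and 0.89 with L778123. Its differences were -1.30 ± 0.13 and -1.06 ± 0.13 (adjusted p = 0.000748 and 0.0031). LINC00597 overlaps PEAK1, which encodes a pseudokinase of the cytoskeleton, on the same strand in the RefSeq table, and PEAK1 was not called in either line. With normexp the OVSAHO difference of LINC00597 was -0.91, and the KURAMOCHI differences of LINC00597 and LINC02595 were -0.96 and -0.95. Without the first simvastatin array of KURAMOCHI that of LINC00597 was -0.90.

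**Figure D2:**
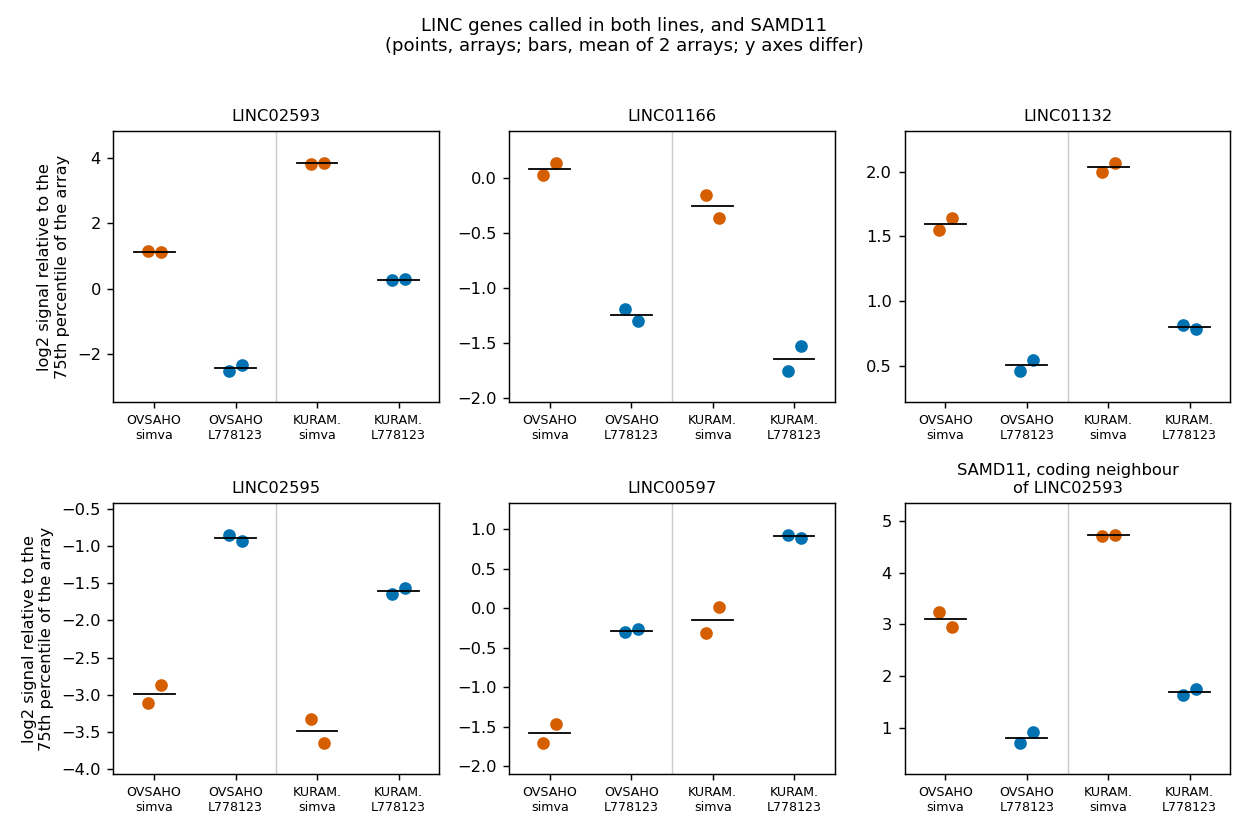
Log2 signal relative to the 75th percentile of the array (y axis, which differs between panels) on each of the 8 arrays for the 5 LINC genes called in both lines and for SAMD11, by group (x axis), with points for arrays and bars for the mean of 2 arrays. In every panel the drugs do not overlap within a line, with simvastatin above L778123 for LINC02593, LINC01166, LINC01132 and SAMD11 and below it for LINC02595 and LINC00597.

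In OVSAHO the largest falls among members not called in KURAMOCHI were those of LINC00113, LINC01186, LINC01936 and LINC00472. For LINC00113, the log2 signals were -4.004 and -3.72 with simvastatin and -0.94 and -1.18 with L778123 in OVSAHO, beside -3.23 and -3.43 and then -3.38 and -3.27 in KURAMOCHI. Both simvastatin arrays of OVSAHO lay far below both L778123 arrays, while the 4 KURAMOCHI arrays lay close together, from -3.43 to -3.23. The lowest signals well above background on the KURAMOCHI arrays were -4.73 to -4.34. A fall as large as that in OVSAHO could thus not have been measured above background in KURAMOCHI. The difference was -2.80 ± 0.14 in OVSAHO (adjusted p = 7.34e-05), and it differed between the lines by -2.80 ± 0.19 (adjusted p = 0.000839). Over the other settings of the arrays, the signal or the test, the values nearest to 0 were -1.53 and -1.58, and both calls were kept.

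LINC01186 had log2 signals of -2.01 and -1.81 (simvastatin) and 0.75 and 0.69 (L778123) in OVSAHO and of 0.18 and 0.12 (simvastatin) and 0.73 and 0.67 (L778123) in KURAMOCHI. The OVSAHO simvastatin arrays stood apart from the other 6, with a difference of -2.63 ± 0.08 in OVSAHO and -0.55 ± 0.08 in KURAMOCHI and -2.08 ± 0.12 between the lines (adjusted p = 0.000503 for the last). LINC01186 and LINC02595 share their nearest coding gene, KRABD4, a gene of the KRAB domain family, with a gap of 5 kb or more to each, and KRABD4 was not called in either line. The log2 signal of LINC01936 was -3.11 and -2.85 on the simvastatin arrays and -0.79 and -0.88 on the L778123 arrays of OVSAHO, and -0.95 and -0.85 against -0.78 and -0.78 in KURAMOCHI. It was called in OVSAHO at -2.14 ± 0.10 (adjusted p = 6.23e-05), and the line difference of the drug contrast was -2.02 ± 0.14 (adjusted p = 0.000833).

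LBH, a transcription cofactor of limb and heart development that responds to Wnt signals and the coding gene nearest to LINC01936, showed the same arrangement. On the OVSAHO arrays LBH had a log2 signal of 2.30 and 2.31 with simvastatin and 4.14 and 4.15 with L778123, and on the KURAMOCHI arrays 3.97 and 3.99 with simvastatin and 4.12 and 4.13 with L778123. It differed by -1.84 ± 0.05 in OVSAHO, -0.14 ± 0.05 in KURAMOCHI and -1.70 ± 0.07 between the lines, so that LINC01936 and LBH were both called in OVSAHO and both differed between the lines.

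LINC00472 was measured by 6 probes. For LINC00472, the log2 signals were -0.34 and -0.03 with simvastatin and 1.89 and 1.75 with L778123 in OVSAHO, beside 1.73 and 1.66 and then 2.50 and 2.44 in KURAMOCHI. On this brightest probe it differed by -2.01 ± 0.12 in OVSAHO (adjusted p = 0.000114) and by -0.78 ± 0.12 in KURAMOCHI (adjusted p = 0.00576), the latter under 2-fold. All 6 probes were lower with simvastatin in OVSAHO, with differences of -2.01 to -0.51, and 3 of them passed 2-fold. The difference between the lines was -1.23 ± 0.16 on the brightest probe, -0.63 on the median of the probes and -0.08 on the dimmest (adjusted p = 0.662 for the dimmest).

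LINC01091, whose nearest coding gene SPRY1 restrains receptor tyrosine kinase signalling, had differences of opposite sign in the lines. LINC01091 had log2 signals of -2.18 and -1.97 (simvastatin) and -0.44 and -0.44 (L778123) in OVSAHO and of 2.97 and 2.89 (simvastatin) and 2.63 and 2.61 (L778123) in KURAMOCHI. It was lower with simvastatin in OVSAHO, with a difference of -1.64 ± 0.08 (adjusted p = 8.22e-05), and its KURAMOCHI difference of 0.31 ± 0.08 (adjusted p = 0.0383) was under 2-fold. A second probe gave -1.82 (adjusted p = 0.000108) and 0.27 (adjusted p = 0.0965), so that the opposite KURAMOCHI difference did not pass the test on it. SPRY1 differed by -0.47 ± 0.05 and 0.43 ± 0.05, under 2-fold in each line.

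The members called higher in OVSAHO and not in KURAMOCHI were led by LINC00957. The log2 signal of LINC00957 was 0.42 and 0.37 on the simvastatin arrays and -1.21 and -1.35 on the L778123 arrays of OVSAHO, and -1.27 and -1.41 against -1.51 and -1.45 in KURAMOCHI. The OVSAHO simvastatin arrays lay above all others, with a difference of 1.68 ± 0.08 in OVSAHO (adjusted p = 7.03e-05) and 1.54 ± 0.11 between the lines (adjusted p = 0.00102). LINC02245 differed by 1.54 ± 0.16 in OVSAHO and 0.63 ± 0.16 in KURAMOCHI, and LINC00921 by 1.32 ± 0.07 and 0.81 ± 0.07, each past 2-fold in OVSAHO alone. Both also passed the adjusted p in KURAMOCHI, at 0.0332 for LINC02245 and 0.00111 for LINC00921. Of the 9 members called higher in OVSAHO, 7 had the same sign in KURAMOCHI at an adjusted p under 0.05. Of the 19 called lower, 8 had the same sign and 2 the opposite sign at that threshold. The same counts for the other named genes are not given here.

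**Figure D3:**
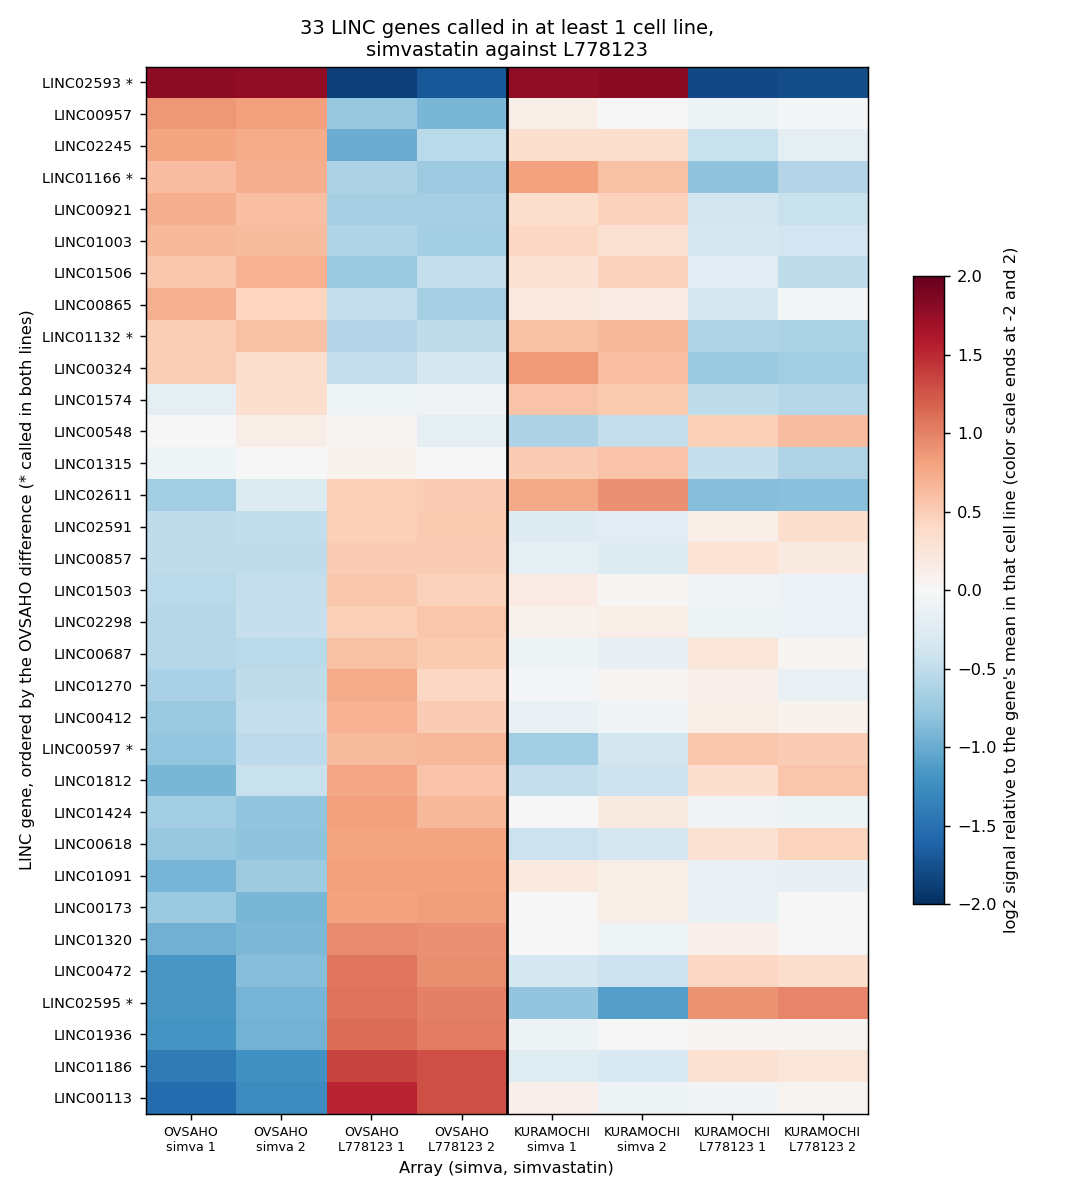
Log2 signal on each array (columns) relative to the gene's mean over the 4 arrays of that cell line, for the 33 LINC genes called in at least 1 line (rows, ordered by the OVSAHO difference), with red above and blue below that mean and the scale ending at -2 and 2. The 2 replicates of each group have like colors, and most genes that are blue in the OVSAHO simvastatin columns are pale in the KURAMOCHI columns.

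In KURAMOCHI the largest rises after LINC02593 were those of LINC02611, LINC00324, LINC01166 and LINC01132. On the OVSAHO arrays LINC02611 had a log2 signal of -3.35 and -2.93 with simvastatin and -2.18 and -2.14 with L778123, and on the KURAMOCHI arrays -1.52 and -1.36 with simvastatin and -3.12 and -3.11 with L778123. Simvastatin arrays were above L778123 arrays in KURAMOCHI and below them in OVSAHO. The KURAMOCHI difference was 1.68 ± 0.14 (adjusted p = 0.000913), the OVSAHO difference -0.98 ± 0.14 (adjusted p = 0.00277) fell just short of 2-fold, and the lines differed by -2.66 ± 0.20 (adjusted p = 0.00105).

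LINC00324 was higher with simvastatin by 1.45 ± 0.11 in KURAMOCHI and by 0.83 ± 0.11, under 2-fold, in OVSAHO. For LINC00548, the log2 signals were -2.60 and -2.48 with simvastatin and -2.57 and -2.79 with L778123 in OVSAHO, beside -0.42 and -0.29 and then 0.67 and 0.80 in KURAMOCHI. LINC00548 was lower with simvastatin in KURAMOCHI, with a difference of -1.09 ± 0.10 (adjusted p = 0.0014), and lower in OVSAHO than in KURAMOCHI, at -2.80 ± 0.07 averaged over both drugs. With normexp the KURAMOCHI differences of LINC02611, LINC00324 and LINC00548 were 0.96, 0.75 and -0.96, so that the calls were lost.

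The difference of the drug contrast between the lines was called for 22 members, 5 (1.71%) higher and 17 (5.82%) lower in OVSAHO than in KURAMOCHI. Without the second L778123 array of OVSAHO it was 10 higher and 16 lower. The other named genes gave 3.35% and 2.45%, or 5.80% in either direction beside 7.53% of the members, and all probes 7.10%. Without the fold threshold it was 70 members (24.0%), beside 28.6% of the other genes. Of the 17, 12 were called in OVSAHO, 2 in KURAMOCHI and 3 in neither, which were LINC00629, LINC00964 and LINC01560, named after their values were seen. Over 17 other settings of the arrays, the signal or the test, LINC00629 was called in 7, LINC00964 in 6 and LINC01560 in 14. In 3 of the 17 and in 3 of the 5 higher ones, both lines passed the adjusted p with opposite signs. Neither split was counted for the other named genes, so it is not known whether the LINC genes differ from them in it. Most negative were the line differences of LINC00113, LINC02611, LINC01186, LINC01936 and LINC01091, whose signals in each line are given above. For LINC02611 the called part was the rise of 1.68 in KURAMOCHI.

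Those of the 5 with opposite signs were LINC00592, LINC01151 and LINC01133. LINC00592 had log2 signals of -1.48 and -1.60 (simvastatin) and -2.63 and -2.44 (L778123) in OVSAHO and of -3.58 and -3.32 (simvastatin) and -3.07 and -2.97 (L778123) in KURAMOCHI. The drugs differed by 1.00 ± 0.12 in OVSAHO and by -0.43 ± 0.12 in KURAMOCHI, and these by 1.42 ± 0.16 (adjusted p = 0.00382). The coding gene nearest to LINC00592 is KRT7, the keratin of simple epithelia, for which the difference between the lines was -0.77 ± 0.10. LINC01151 differed by 0.45 ± 0.08 in OVSAHO and -0.80 ± 0.08 in KURAMOCHI, and LINC01133, studied for its part in the invasion of several carcinomas, by 0.62 ± 0.13 and -0.52 ± 0.13. Each of these was under 2-fold within a line. With normexp the line differences of LINC00592, LINC01151 and LINC01133 were 0.76, 0.81 and 0.82, and without the first L778123 array of OVSAHO that of LINC01133 was 0.97, so that the calls were lost.

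Between the lines, averaged over both drugs, 31 members (10.6%) were called higher and 37 (12.7%) lower in OVSAHO than in KURAMOCHI. The other named genes gave 15.0% and 13.6%, or 28.6% in either direction beside 23.3% of the members, and all probes 33.7%. Without the fold threshold it was 202 members (69.2%), beside 83.0% of the other genes. In all, 24 members (8.22%) differed by at least 4-fold, beside 7.93% of the other genes, and 15 of the 68 (22.1%) were also called in a drug contrast, beside 18.3%.

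LINC00659, LINC01127, LINC01431, LINC00839 and LINC01167 were the members most above their KURAMOCHI level in OVSAHO. The log2 signal of LINC00659 was 1.91 and 1.85 on the simvastatin arrays and 1.71 and 1.71 on the L778123 arrays of OVSAHO, and -2.92 and -3.04 against -2.46 and -2.64 in KURAMOCHI. Every OVSAHO array lay above every KURAMOCHI array, with a difference of 4.56 ± 0.06 (adjusted p = 9.56e-08), a 23.5-fold higher signal. LINC01127 differed by 3.45 ± 0.12, LINC01431 by 3.04 ± 0.07 with 2.46 on a second probe, LINC00839, known from neuroblastoma, by 2.87 ± 0.08 and LINC01167 by 2.75 ± 0.06. The KURAMOCHI signals of LINC01127, -4.21 to -3.05, lay near background. Over the other settings of the arrays, the signal or the test, its difference nearest to 0 was 2.20. LINC01167 lies beside LINC01166, and both have CFAP46, a gene of the cilium, as their nearest coding gene. LINC01166 was called in both drug contrasts and not between the lines, and LINC01167 the reverse.

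LINC00540, LINC01091, LINC01732, LINC01806 and LINC02610 were lowest in OVSAHO relative to KURAMOCHI. On the OVSAHO arrays LINC00540 had a log2 signal of -1.98 and -2.02 with simvastatin and -2.20 and -2.75 with L778123, and on the KURAMOCHI arrays 1.90 and 1.93 with simvastatin and 2.45 and 2.38 with L778123. The lines did not overlap, and the difference was -4.40 ± 0.12 (adjusted p = 8.19e-07), a 21.1-fold lower signal in OVSAHO. FGF9, a fibroblast growth factor and its nearest coding gene, differed in the opposite direction, by 1.38 ± 0.05. LINC01091 differed by -4.03 ± 0.06 and by -3.96 on its second probe, and LINC02610 by -3.33 ± 0.12. LINC01806 differed by -3.65 ± 0.09, and the nearest coding gene, TANK, a regulator of TRAF and NF-κB signalling, by -2.52 ± 0.06. The OVSAHO signals of LINC01806, -4.70 to -3.96, lay near background, which limits the size of its difference. Over the other settings of the arrays, the signal or the test, its difference nearest to 0 was -1.89.

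The result for LINC01732 rested on 1 of its 2 probes. For LINC01732, the log2 signals were 1.57 and 1.49 with simvastatin and 2.06 and 2.03 with L778123 in OVSAHO, beside 5.13 and 5.18 and then 5.92 and 6.01 in KURAMOCHI. The brightest probe gave -3.77 ± 0.04 (adjusted p = 8.72e-08), while the other gave -0.03 (adjusted p = 0.677). Probes of a gene can lie in different exons or transcripts, and which of these holds here was not tested.

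**Figure D4:**
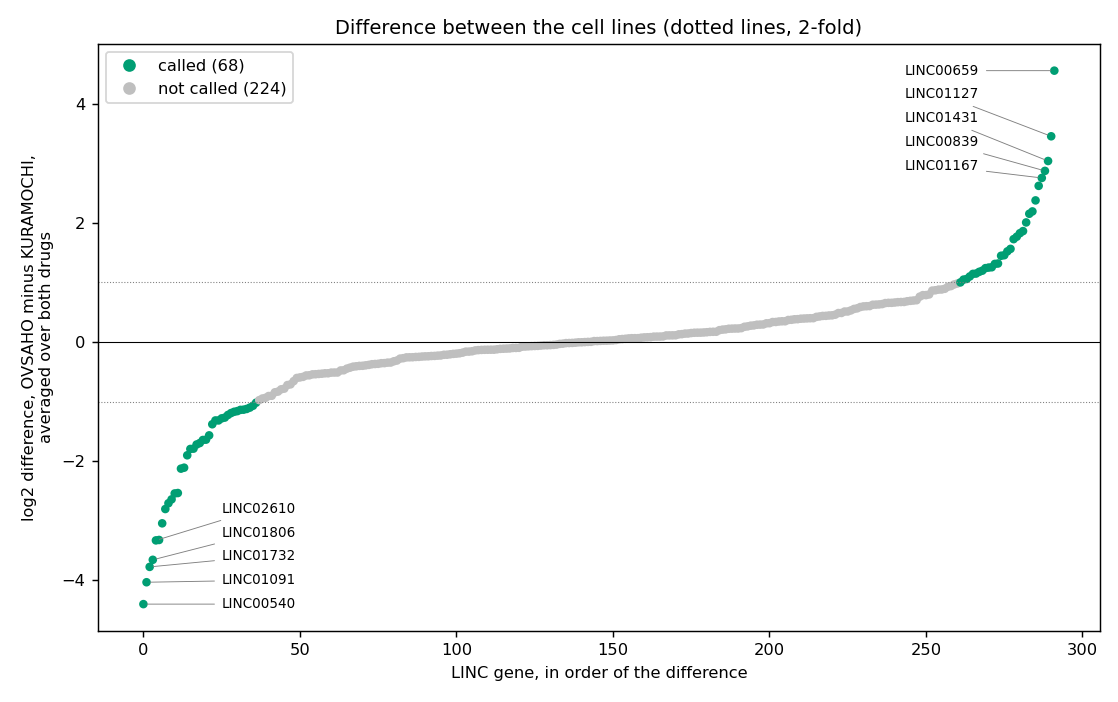
Log2 difference between OVSAHO and KURAMOCHI averaged over both drugs (y axis) for the 292 LINC genes in order of that difference (x axis), with called genes in green, the others in gray and dotted lines at 2-fold. The ends run from -4.40 for LINC00540 to 4.56 for LINC00659.

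LINC genes of interest in cancer were also listed by name. LINC00665 differed by -0.49 ± 0.06 in OVSAHO (adjusted p = 0.0013), under 2-fold, and by 2.15 ± 0.04 between the lines, with 1.94 and 2.07 on 2 further probes. Its coding neighbour ZFP14, a zinc finger gene at a gap of under 5 kb, differed between the lines by 2.20 ± 0.06. LINC01116, from the region of the HOXD genes, differed by 0.63 ± 0.07 in KURAMOCHI, under 2-fold, and by -2.54 ± 0.05 between the lines, with -2.33 to -2.28 on 3 further probes. LINC00941 differed by 0.40 ± 0.12 in OVSAHO and 0.45 ± 0.12 in KURAMOCHI, under 2-fold, and its 2 other probes gave 0.26 and 0.52 in OVSAHO and 0.06 and -0.01 in KURAMOCHI. LINC00467, described as repressed by MYCN in neuroblastoma, differed between the lines by -0.79 ± 0.04 on its brightest probe and by -0.09 on its second. LINC00662 was not called in any comparison.

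For LINC00963 and LINC00673 the choice of the probe decided the drug contrast. LINC00963 had log2 signals of 2.40 and 2.50 (simvastatin) and 1.90 and 1.95 (L778123) in OVSAHO and of 2.31 and 2.27 (simvastatin) and 1.94 and 1.93 (L778123) in KURAMOCHI. The brightest of 3 probes of LINC00963 differed by 0.53 ± 0.06 in OVSAHO and 0.35 ± 0.06 in KURAMOCHI, while the others gave 1.00 and 1.20 in OVSAHO (adjusted p = 0.000416 and 0.000183), past 2-fold, and 0.72 and 0.82 in KURAMOCHI. The brightest probe of LINC00673 was not called, with adjusted p-values of 0.892 and 0.958, while its second probe gave 1.504 in OVSAHO (adjusted p = 0.000108) and 0.95 in KURAMOCHI (adjusted p = 0.00115). Between the lines its brightest probe gave 0.30 ± 0.07 and its second -0.59. In all, 60 members had several probes, and those of a gene shared their sign in 44 of 60 in OVSAHO, 39 in KURAMOCHI, 39 for the difference and 41 between the lines. Of the 4 such members called in OVSAHO, 2 were called the same way by all their probes.

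The 3 members that changed least over the 4 comparisons were LINC03014, LINC01016 and LINC00163, whose largest absolute log2 differences were 0.05, 0.05 and 0.06. These are values of the brightest probe. A second probe of LINC03014 differed by 0.87 in OVSAHO (adjusted p = 0.0231) and the other 2 genes had 1 probe. LINC01016 lay between -0.18 and 0.06 on all arrays. Of the 292 members, 65 had an adjusted p of 0.05 or more in every comparison, and 204 were called in none. These 2 counts were not set beside those of the other named genes.

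In the RefSeq gene table, the nearest protein-coding gene lay at 5 kb or more for 225 members, at a smaller gap for 39 and overlapped 28. This nearest gene was measured on all arrays for 200. In OVSAHO, 22 of the members called had a measured neighbour, and 3 neighbours were called in the same direction and none in the other, SAMD11 beside LINC02593, LBH beside LINC01936, and VRK1, a chromatin kinase of dividing cells, beside LINC00618. LINC00618, named here after its values were seen, differed by -1.57, and VRK1 by -1.23. Over all 200 pairs with a measured neighbour, the neighbour was called higher in 7 and lower in 10. In KURAMOCHI 1 of 7 was, SAMD11, with neighbours called higher in 6 and lower in 1 of the 200. For the difference between the lines in the drug contrast it was 1 of 17, LBH, with neighbours called higher in 6 and lower in 6 of the 200. Between the lines, 15 of 50 were called the same way and 3 the other, FGF9 beside LINC00540, ZHX2 beside LINC01151 and FAM98A beside LINC01320, the last chosen after its values were seen. Over the 200 pairs, the neighbour was called higher between the lines in 28 and lower in 32. Beside LINC00592, higher in OVSAHO by 1.20 ± 0.08, KRT7 was higher by 4.45 ± 0.05.

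Over the 200 pairs, which share arrays and in part neighbours, since 40 members shared 19 neighbours, member and neighbour correlated with a Pearson r of 0.26 in OVSAHO and 0.27 in KURAMOCHI and of 0.20 between the lines. LINC02593 and SAMD11 carried part of this, since r without this pair was 0.18 in OVSAHO and 0.08 in KURAMOCHI, and 0.19 and 0.08 without all 3 pairs that hold SAMD11. For the 24 pairs at under 5 kb r was 0.70 in OVSAHO and 0.79 in KURAMOCHI, and 0.37 and 0.05 without that pair. Between the lines r was 0.60 for these 24 pairs, 0.40 for the 16 overlapping pairs and 0.12 for the 160 at 5 kb or more. Values between the lines without that pair are not given here, and a dependence on the gap was not tested.

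**Figure D5:**
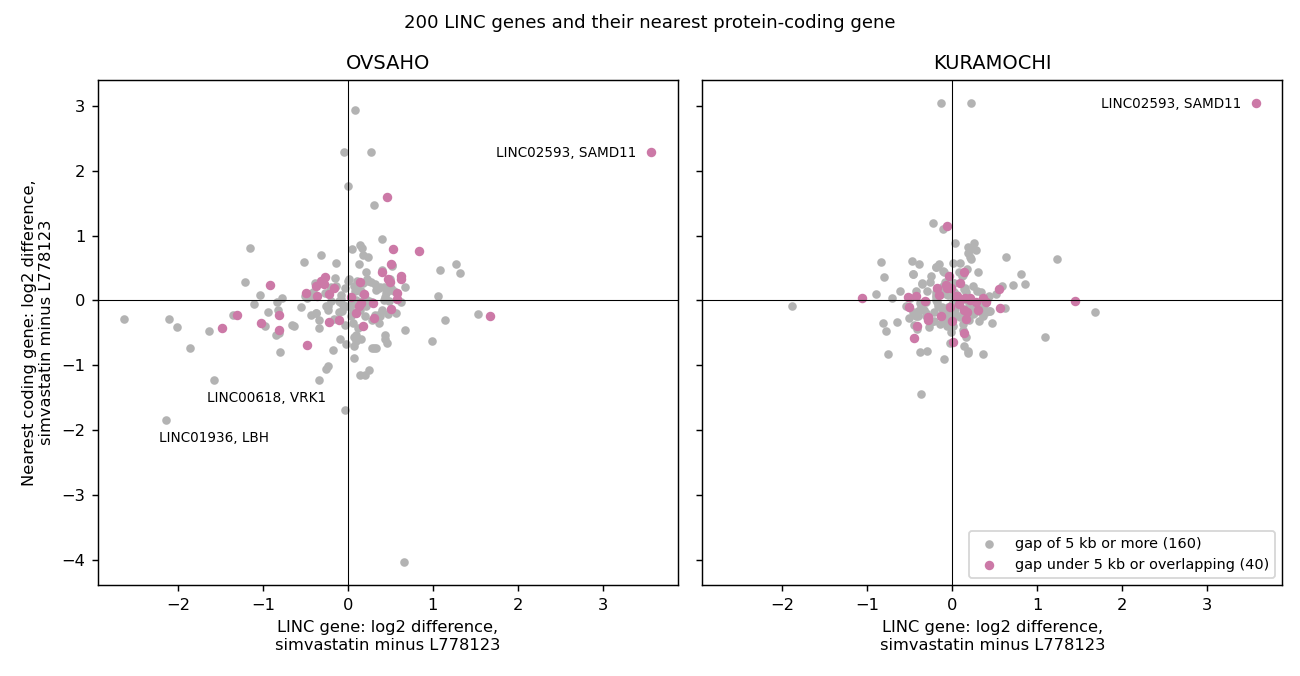
Log2 difference between simvastatin and L778123 of 200 LINC genes (x axis) and of their nearest protein-coding gene (y axis) in OVSAHO (left) and KURAMOCHI (right), with pairs at a gap under 5 kb or overlapping in pink and the others in gray. LINC02593 and SAMD11 lie at the upper right in both panels, LINC01936 and LBH at the lower left in OVSAHO, the lowest point in OVSAHO is ENC1, the gene nearest to LINC01333, at -4.04, and most other pairs spread around 0; SAMD11 appears 3 times, since 3 LINC genes have it as their nearest gene.

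Of 40 long noncoding RNAs with other names that were set beside the LINC genes, 34 were measured on all arrays. Called were 4 (11.8%) in OVSAHO, 1 (2.94%) in KURAMOCHI and 10 (29.4%) between the lines, near the 9.61%, 3.88% and 28.6% of all named genes outside the LINC group. Without the fold threshold, 25 (73.5%) passed in OVSAHO and 19 (55.9%) in KURAMOCHI, above the 57.4% and 37.5% of those named genes. In OVSAHO, LINC-PINT, a p53-induced RNA, was higher by 1.24 and SNHG7, a host of small nucleolar RNAs, by 1.09, while CYTOR differed by -1.19 and KCNQ1OT1, the antisense RNA of an imprinted region, by -1.12. In KURAMOCHI CYTOR differed by -1.24 and no other gene of the list was called. For the line difference of the drug contrast none was called, and between the lines 6 were higher and 4 lower. NEAT1, which builds paraspeckles, differed by 0.84 in OVSAHO and 0.34 in KURAMOCHI, and MALAT1, a nuclear speckle RNA, by 0.73 in OVSAHO (adjusted p = 0.00127), each under 2-fold. The medians of the list were 0.32 and 0.21 in the drug contrasts, above those of the LINC members. The lists and members were chosen with results of these data known, and no list was tested as a set.

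Of the settings tried at these thresholds, normexp gave the fewest called LINC genes. It started from the raw spot median in place of the processed signal, with another background correction and an offset of 50, and which of these lowered the counts was not tested. With it, 17 of the 28 were still called in OVSAHO, 3 of 10 in KURAMOCHI (LINC02593, LINC01166 and LINC01132), 12 of 22 for the line difference and 44 of 68 between the lines, with no added call.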

How the data were processed

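Total RNA of the 4 groups was hybridized to 8 Agilent SurePrint G3 arrays with 1 dye, 2 per group, grouped by the labels. The authors extracted the images with Agilent Feature Extraction 11.5.1.1 and deposited each spot's processed intensity, corrected for background and spatial trends within the array by the software and with 75th percentiles that differ between arrays, with raw median intensities and detection flags. Their table of processed intensity, on a linear scale, had near-identical medians of 26.4 to 26.5 on all arrays. Its sorted values differed between arrays by a median of 0.002 log2, beside 0.44 for the scanner's signal. Whole distributions were thus matched between arrays, as quantile normalization does, by a method not named in the sources used here. That table and quantile normalization are therefore not independent settings below. The table correlated at 0.999 or more with the scanner's log2 signal of its array.

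Control spots and 58 to 99 outlier spots per array were left out, which left 58162 of 58201 probes. From each log2 processed signal the array's 75th percentile was subtracted, the scaling that the authors' methods name. A probe was tested if the 2 arrays of any group measured it well above background. These 33753 probes went into limma 3.58.1 (R 4.3.3, functions lmFit and eBayes, 1 mean per group, spread shared by the groups, two-sided), with Benjamini-Hochberg adjustment over all of them. A call needed at least 2-fold and an adjusted p under 0.05. Errors are standard errors of log2 differences, and n is 2 arrays per group. The number of arrays limits the precision. The comparisons were simvastatin against L778123 in each line, the difference of these (OVSAHO minus KURAMOCHI), and OVSAHO against KURAMOCHI averaged over drugs.

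Symbols came from RefSeq accessions in the files. RefSeq's table is of a later assembly (GRCh38.p14) than the array design, so that only its names, neighbours and promoter windows were used. The members and lists were chosen with earlier results of these data known. Genes named are the 5 largest called differences in each direction per comparison, members called in both lines, the 3 that changed least and 10 fixed names. Tables and figures were made with pandas 2.3.3 and matplotlib 3.10.9 in Python 3.11.15.

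Results were recomputed with each array left out, with each line alone, with other probes per gene and fold thresholds, with a replicate block and with the two-way analysis of variance and Tukey's test that the methods name. Signals were recomputed with normexp (offset 50), with quantile normalization, from the authors' table, with a floor, with a 75th percentile of bright probes alone and with looser or stricter filters on dim probes. The raw spot median was used for normexp. No gene set was tested. The slide was not fitted, since there was 1.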

Additional observations from a re-analysis of the deposited data

Results flagged for a closer look

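The drug contrast of 70 members differed between the lines at an adjusted p under 0.05 from limma, whatever the size, so that these genes had an effect in one cell line that was tested to differ from that in the other. This was 24.0% of the members, beside 28.6% of the other named genes. Among the named members, the log2 difference (OVSAHO minus KURAMOCHI) was below 0 for LINC00113 at -2.80, LINC02611 at -2.66, LINC01186 at -2.08, LINC01936 at -2.02, LINC01091 at -1.95 and LINC00472 at -1.23. It was below 0 and under 2-fold for LINC01167 at -0.91, LINC00324 at -0.61, LINC01116 at -0.51 and LINC00665 at -0.31. It was above 0 for LINC00957 at 1.54, LINC00592 at 1.42, LINC01151 at 1.25, LINC00548 at 1.24 and LINC01133 at 1.14, and under 2-fold for LINC00540 at 0.98, LINC02245 at 0.90, LINC00659 at 0.59 and LINC00921 at 0.51. Groups of 2 arrays are too small to look for single arrays that stand apart.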

How the results depend on the processing

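Of 54 called differences of named members, 1043 of 1067 recomputed values kept direction and call, 24 lost the call and 0 reversed. This share was in part fixed in advance. The looser fold thresholds reused the same fit and could lose no call, and the floor could not change the signal of a member. Leaving out an array of one line left the differences within the other line unchanged. Normexp lost 15 of 54 and the dimmest probe of a gene 4 of the 10 with several probes. Normexp lowered the counts of called members from 28 to 17 in OVSAHO, from 10 to 3 in KURAMOCHI, from 22 to 12 for the line difference of the drug contrast and from 68 to 44 between the lines. It changed the input signal, the background correction and the offset together, and the cause was not tested. A threshold of 1.5-fold gave 55, 28, 52 and 113 in that order, and no fold threshold 123, 76, 70 and 202. Leaving out 1 array at a time gave 25 to 35, 10 to 12, 18 to 26 and 68 to 71. Replicate numbers were shared only as numbers, since deviations of same-numbered arrays correlated at 0.001 to 0.056 between groups, and with the replicate number as a block the counts were 28, 10, 20 and 68. The other settings kept every count within 1.5 times. Calls that held in all settings at 2-fold, the choice of the probe included, were 14 of 28, 3 of 10, 10 of 22 and 37 of 68, and with the brightest probe 16, 3, 12 and 43.

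Signs that reversed came from genes with several probes, by the choice of the probe. LINC00673 between the lines was -0.15 by the median over its probes and -0.59 by the dimmest, LINC00941 between the lines 0.083 and 0.209, and by the dimmest probe LINC00941 in KURAMOCHI was -0.012 and LINC01732 in KURAMOCHI 0.016. Signals near background limit the rest, since most members are dim.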
